A study of Mus musculus with 4 samples.

Results

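The genes described here mark monocytes, macrophages and dendritic cells, and 32 of them were chosen by symbol from markers of these cells, all 32 of which were among the 15607 genes of the deposited table. They fall into 5 subsets: 10 monocyte genes, 5 effector genes shared by phagocytes, 11 genes of resident macrophages, 2 genes of plasmacytoid dendritic cells and 4 of conventional dendritic cells. RNA-seq was run on sorted lineage-negative bone marrow cells of mice, the fraction that lacks most mature blood cells and in which stem and progenitor cells are concentrated. The series' design text gives this sort, while the sample titles call the cells HSCs and another label stem and progenitor cells. Mice 5 and 6 carried a conditional knockout of Mel18, a Polycomb protein encoded by Pcgf2, in the blood system, and mice 1 and 3 were wild type, so that each group held 2 libraries from separate mice. The labels used here state neither the Cre driver nor the deleted exons, nor the antibodies of the sort, the strain, the sex or the age.

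Monocytes and dendritic cells arise in the bone marrow from shared progenitors under the transcription factor IRF8 and the growth factor receptors CSF1R and FLT3, while neutrophils branch off earlier. Resident macrophages of the marrow sit in the stroma and around developing red cells, engulf dying cells and the nuclei that erythroblasts expel, and recycle heme iron. Plasmacytoid dendritic cells are sources of type I interferon, and conventional dendritic cells present antigen to T cells. Several of the markers are also made by other cells: Lyz2 and Cybb by neutrophils, Tcf4 by lymphoid progenitors, and Vcam1, Axl and Hmox1 by stromal cells.

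Total counts were 46240864 and 44642002 in knockout mice 5 and 6, and 35599564 and 37197363 in wild type mice 1 and 3. The 5 stem and progenitor genes looked at, chosen after values were seen, were all detected: Kit, Cd34 and Mpo had at least 4632 counts in each library, and Flt3 had 1773 to 2849. Ly6a, which encodes Sca-1, had 535 and 500 counts in knockout mice 5 and 6, against 898 and 484 in wild type mice 1 and 3 (log2 fold change -0.74; quasi-likelihood adjusted p = 0.554). Late neutrophil genes were also abundant. Pcgf2 itself had 303 and 321 counts in knockout mice 5 and 6, against 210 and 158 in wild type mice 1 and 3, so the count over the whole gene does not check the genotype, and every direction below rests on the genotypes as labelled. Of all genes, 0.135% passed the edgeR quasi-likelihood test at an adjusted p under 0.05 (21 genes; 0.032% were higher and 0.103% lower). Of the 32 members, 0 passed; at an unadjusted p under 0.05 there were 2, both lower, against 5.56% of all genes lower and 3.33% higher. The DESeq2 Wald test, limma voom and the edgeR likelihood ratio test called 0 members as well, and in the authors' deposited table, which calls 1.13% of all genes, 0 members are called and 4 have an unadjusted p under 0.05.

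Promoter sequences are shown for 5 members that stand for the patterns described: the regulator Irf8, with nearly equal levels in the groups, the phagocyte effectors Cybb and Ctss, and the macrophage genes C1qb and Cd5l, whose levels differed between the wild type mice. Each is the 250 bases before the gene's start in RefSeq, build GRCm38.p6, read 5′ to 3′ along the gene. They lie at chr8:120736108-120736357 (plus strand, Irf8), chrX:9469325-9469574 (minus strand, Cybb), chr3:95526536-95526785 (plus strand, Ctss), chr4:136886201-136886450 (minus strand, C1qb) and chr3:87357631-87357880 (plus strand, Cd5l). Capitals mark the motifs searched on both strands: GAGGAA, the core of sites for ETS factors such as PU.1, its longer form GAGGAAGT, which contains it, the core of the interferon-stimulated response element bound by IRF factors, the Maf half-site TGCTGAC, and TATAAA. A motif on the other strand is capitalised as its reverse complement.
Irf8: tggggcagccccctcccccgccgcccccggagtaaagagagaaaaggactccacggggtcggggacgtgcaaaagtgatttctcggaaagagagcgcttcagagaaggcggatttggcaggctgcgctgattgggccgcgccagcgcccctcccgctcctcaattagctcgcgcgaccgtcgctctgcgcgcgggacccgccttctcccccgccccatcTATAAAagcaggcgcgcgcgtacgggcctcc
Cybb: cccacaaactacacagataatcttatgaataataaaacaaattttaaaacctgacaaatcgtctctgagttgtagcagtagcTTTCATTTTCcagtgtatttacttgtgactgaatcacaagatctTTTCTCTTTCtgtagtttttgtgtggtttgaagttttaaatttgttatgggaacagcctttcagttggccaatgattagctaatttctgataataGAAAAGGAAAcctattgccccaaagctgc
Ctss: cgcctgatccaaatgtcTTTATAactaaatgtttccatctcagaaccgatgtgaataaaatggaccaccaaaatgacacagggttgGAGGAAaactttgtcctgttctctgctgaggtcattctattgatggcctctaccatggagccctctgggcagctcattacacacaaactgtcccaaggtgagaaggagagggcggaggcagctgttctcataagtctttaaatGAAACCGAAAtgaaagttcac
C1qb: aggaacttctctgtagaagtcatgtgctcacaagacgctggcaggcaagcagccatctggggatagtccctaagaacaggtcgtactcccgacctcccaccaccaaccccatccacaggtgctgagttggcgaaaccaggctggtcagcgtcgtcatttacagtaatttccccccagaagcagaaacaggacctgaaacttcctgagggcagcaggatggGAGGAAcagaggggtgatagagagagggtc
Cd5l: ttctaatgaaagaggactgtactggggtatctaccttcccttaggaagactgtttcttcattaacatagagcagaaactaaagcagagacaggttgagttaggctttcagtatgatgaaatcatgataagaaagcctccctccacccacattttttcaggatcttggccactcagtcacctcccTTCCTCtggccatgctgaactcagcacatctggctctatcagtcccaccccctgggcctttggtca
The Irf8 window holds TATAAA, beginning 31 bases before the start. The Cybb window holds the interferon-stimulated response element core at 3 places, the nearest beginning 29 bases before the start, and the Ctss window holds it once, 21 bases before. The C1qb and Cd5l windows hold GAGGAA, 30 and 66 bases before. GENCODE places the C1qb start a little differently, so its distances hold for the RefSeq start, and it also annotates a Cybb start further upstream. The promoter set used here held 26 of the 32 members. Of these, 3 hold the interferon-stimulated response element core (Cybb, Ctss and Cd300c), against 2.98% of 32536 promoter windows of the same length. GAGGAA stands in the windows of 11 of the 26 and in 23.4% of all windows, GAGGAAGT in 2 (Ly6c2 and C1qc) and in 2.45%, TATAAA in 5 and in 12.3%, and TGCTGAC in 0 and in 3.79%. Some members have more than 1 window and were counted if any window held the motif, while the percentages are of single windows. A match of letters is a description only.

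Per kilobase of transcript, the members spanned a wide range of levels in these cells, and 21 of the 32 had at least 10 RPKM (reads scaled to gene length and library size) as a mean of the 4 libraries. Lyz2, encoding lysozyme, was highest, at a mean of 1789 RPKM in knockout and 2200 RPKM in wild type. The monocyte surface gene Ly6c2 followed at 244 and 284 RPKM in knockout and wild type, and Mpeg1, encoding the pore-forming perforin-2 of phagocytes, at 156 RPKM in knockout and 158 RPKM in wild type. C1qa and C1qb lay at 52.9 and 50.9 RPKM in knockout, against 63.7 and 59.9 RPKM in wild type. Lowest were the scavenger receptor Marco, at 0.131 RPKM in knockout and 0.293 RPKM in wild type, and Xcr1, the chemokine receptor of cross-presenting dendritic cells, at 0.175 RPKM in knockout and 0.151 RPKM in wild type. These 2 were also the members with a mean under 1 CPM (counts scaled to library size) in both groups. All 6 dendritic markers had under 10 RPKM. Of these, Tcf4 has a deposited length of 27382 bases, and had a mean of 60.1 CPM in knockout and 56.9 CPM in wild type.

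**Figure D1:**
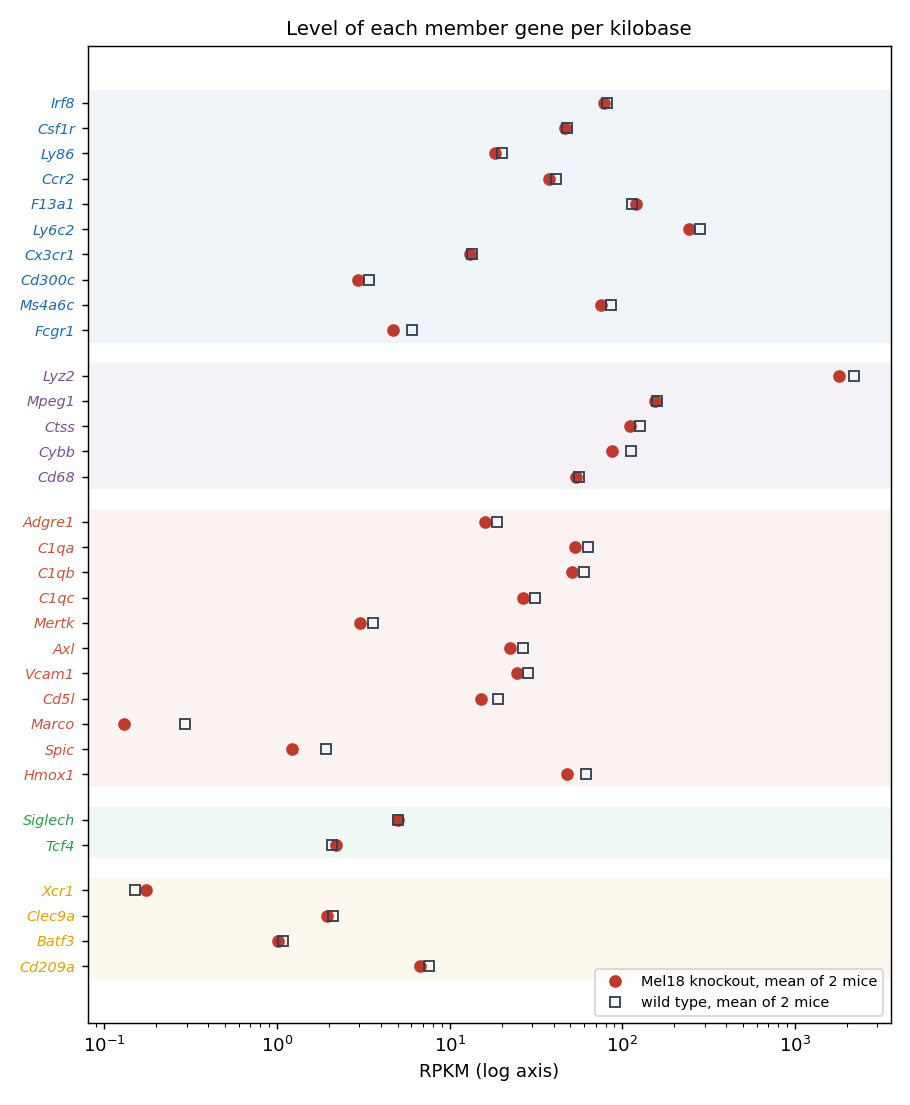
Mean level of each member gene in RPKM on a log axis, in Mel18 knockout (filled circles) and wild type (open squares), with genes grouped and coloured by subset. Lyz2 is highest at 1789 and 2200 RPKM in knockout and wild type, Marco and Xcr1 are lowest, and for most genes the symbols of the groups touch.

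Between the groups the members differed little. For 7 members both knockout values were lower than both wild type values, against 20.9% of all genes, and for 2, Tcf4 and Xcr1, they were higher, against 21.4% of all genes, while the groups overlapped for 23. The wild type mice differed more from each other than the group means did for 24 members, against 59.5% of all genes. The log2 fold change of knockout over wild type was below 0 for 29 of the 32, against 51.1% of all genes, with a median of -0.20 beside -0.0053 over all genes. That median depended on wild type mouse 3, and without that library it was 0.0003. The resident macrophage median then went from -0.25 to 0.16 and the effector median from -0.19 to 0.044. The monocyte median stayed near its value, at -0.13 beside -0.14, and the conventional dendritic median went from -0.10 to -0.21. Both medians moved when other libraries were left out. Without knockout mouse 5 the monocyte and conventional dendritic medians were -0.036 and 0.13. They were -0.18 and -0.27 without knockout mouse 6, and -0.061 and 0.14 without wild type mouse 1. The 95% interval of the fold change lay within 2-fold either way for 25 members, against 76.6% of all genes, and 7 of the 11 resident macrophage genes made up the rest. In bulk RNA, fewer cells of a type and less RNA per cell cannot be told apart.

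Monocyte genes differed little between the groups, with a median log2 fold change of -0.14. Of the 10 genes, 9 had a log2 fold change below 0, against 51.1% of all genes. Irf8, the master regulator of monocyte and dendritic fate, had 529.9 and 569 CPM in knockout mice 5 and 6, against 591 and 559 CPM in wild type mice 1 and 3. The groups overlapped, and the log2 fold change was -0.066 ± 0.10 (SE) with a 95% interval from -0.31 to 0.18 (quasi-likelihood adjusted p = 0.847). Csf1r, the receptor for macrophage colony-stimulating factor, had 261 and 277 CPM in knockout mice 5 and 6, and 250.3 and 301 CPM in wild type mice 1 and 3. The wild type values lay on either side of the knockout values, and the interval of the log2 fold change ran from -0.30 to 0.23. Reads of Csf1r cannot be told apart from those of Hmgxb3 on the opposite strand over 873 shared exonic bases, since the library kit does not mark strand.

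For Ccr2, Cx3cr1 and F13a1 the groups overlapped as well. Ccr2, which draws monocytes out of the marrow, was at 220.4 and 288 CPM in knockout mice 5 and 6, and at 299.7 and 256 CPM in the wild type mice 1 and 3, so that the knockout mice differed more from each other than the group means did. Cx3cr1, the fractalkine receptor of patrolling monocytes, was the steadiest of the 10, with 58.4 and 60.5 CPM in knockout mice 5 and 6, and 59.2 and 61.9 CPM in wild type mice 1 and 3. Its log2 fold change was -0.027, with an interval from -0.20 to 0.15. F13a1, encoding the A subunit of coagulation factor XIII and abundant in monocyte progenitors, was the only monocyte member with a positive log2 fold change (0.084 ± 0.13, SE; quasi-likelihood adjusted p = 0.846), at 743 and 878 CPM in knockout mice 5 and 6 and 728 and 802 CPM in wild type mice 1 and 3.

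In 3 of the 10 monocyte genes the knockout values were both under the wild type values, near the 20.9% of all genes. Ly6c2, the Ly6C antigen of classical monocytes, had 659.7 and 680.04 CPM in knockout mice 5 and 6, against 738 and 817 CPM in wild type mice 1 and 3 (log2 fold change -0.22 ± 0.11, SE; quasi-likelihood adjusted p = 0.606). Its near-identical neighbour Ly6c1, chosen after its values were seen, had 22 and 17 counts in knockout mice 5 and 6 and 22 and 31 in wild type mice 1 and 3, so any reads assigned to the wrong copy are uncertain. Ms4a6c, a membrane protein of the MS4A family, had 146 and 164 CPM in knockout mice 5 and 6, against 189 and 165 CPM in wild type mice 1 and 3, where knockout mouse 6 and wild type mouse 3 were almost equal. Of its exonic bases, 1088 are shared with the opposite-strand transcript BE692007. Fcgr1, the high-affinity IgG receptor CD64, was at 11.7 and 12.6 CPM in knockout mice 5 and 6 and at 12.8 and 18.4 CPM in the wild type mice 1 and 3, with a log2 fold change of -0.36 ± 0.18 (SE; quasi-likelihood adjusted p = 0.601). Here wild type mouse 3 stood apart from the other libraries. Ly86, the partner of the receptor RP105, had 61.4 and 71.0 CPM in knockout mice 5 and 6, against 77.6 and 69.2 CPM in wild type mice 1 and 3. Cd300c, an activating receptor, had 3.44 and 2.84 CPM in knockout mice 5 and 6, against 4.07 and 3.20 CPM in wild type mice 1 and 3. Both overlapped between the groups, with log2 fold changes of -0.15 and -0.21, and Cd300c may share reads with its paralogue Cd300c2. Exons of F13a1, Cx3cr1 and Vcam1 overlap short stretches of antisense transcripts, whose reads cannot be told apart from theirs.

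Effector genes shared by monocytes, macrophages and, for some, neutrophils had a median log2 fold change of -0.19, all 5 below 0. Cybb, the gp91phox subunit of the NADPH oxidase, carried 1 of the 2 unadjusted p-values under 0.05 among the members. It had 466 and 544 CPM in knockout mice 5 and 6, against 584 and 729 CPM in wild type mice 1 and 3, so the groups did not overlap. The log2 fold change was -0.38 ± 0.14 (SE), with an interval from -0.72 to -0.044 and a quasi-likelihood adjusted p of 0.502. Lyz2 had 2106 and 2604 CPM in knockout mice 5 and 6, against 2269.8 and 3519 CPM in wild type mice 1 and 3. Wild type mouse 3 was highest and the other wild type mouse lay between the knockout mice, and the log2 fold change was -0.30 ± 0.23 (SE; quasi-likelihood adjusted p = 0.704). The paralogue Lyz1, chosen after its values were seen, had at most 132 counts in any library.

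Ctss, the lysosomal protease cathepsin S that trims the class II invariant chain, was at 137 and 166 CPM in knockout mice 5 and 6 and at 164 and 180.1 CPM in the wild type mice 1 and 3. Mpeg1 was at 601 and 749 CPM in knockout mice 5 and 6 and at 627 and 747 CPM in the wild type mice 1 and 3, where the 2 groups nearly coincided. Cd68, a lysosomal glycoprotein of macrophages, had 65.5 and 71.0 CPM in knockout mice 5 and 6, against 59.9 and 82.2 CPM in wild type mice 1 and 3. In these 3 genes the groups overlapped, and the log2 fold changes were -0.19, -0.025 and -0.058. Beside Lyz2 and Cybb, the 13 late neutrophil markers, all measured, had both knockout values under both wild type values in 13 of 13. Their summed level was 14500 and 14710 CPM in knockout mice 5 and 6, against 20570 and 29200 CPM in wild type mice 1 and 3, with 3 of the 13 called lower (Fpr2, Retnlg and Cxcr2) and none at 0 in a library. The 10 interferon response genes had summed levels of 186 and 181 CPM in knockout mice 5 and 6, against 235 and 276 CPM in wild type mice 1 and 3, with 0 called and 9 lower at an unadjusted p under 0.05. Of these, 10 of the 13 late neutrophil genes and 4 of the 10 interferon response genes are called in the authors' deposited table. The part of either in the values of Cybb, Lyz2 and Fcgr1 was not tested.

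**Figure D2:**
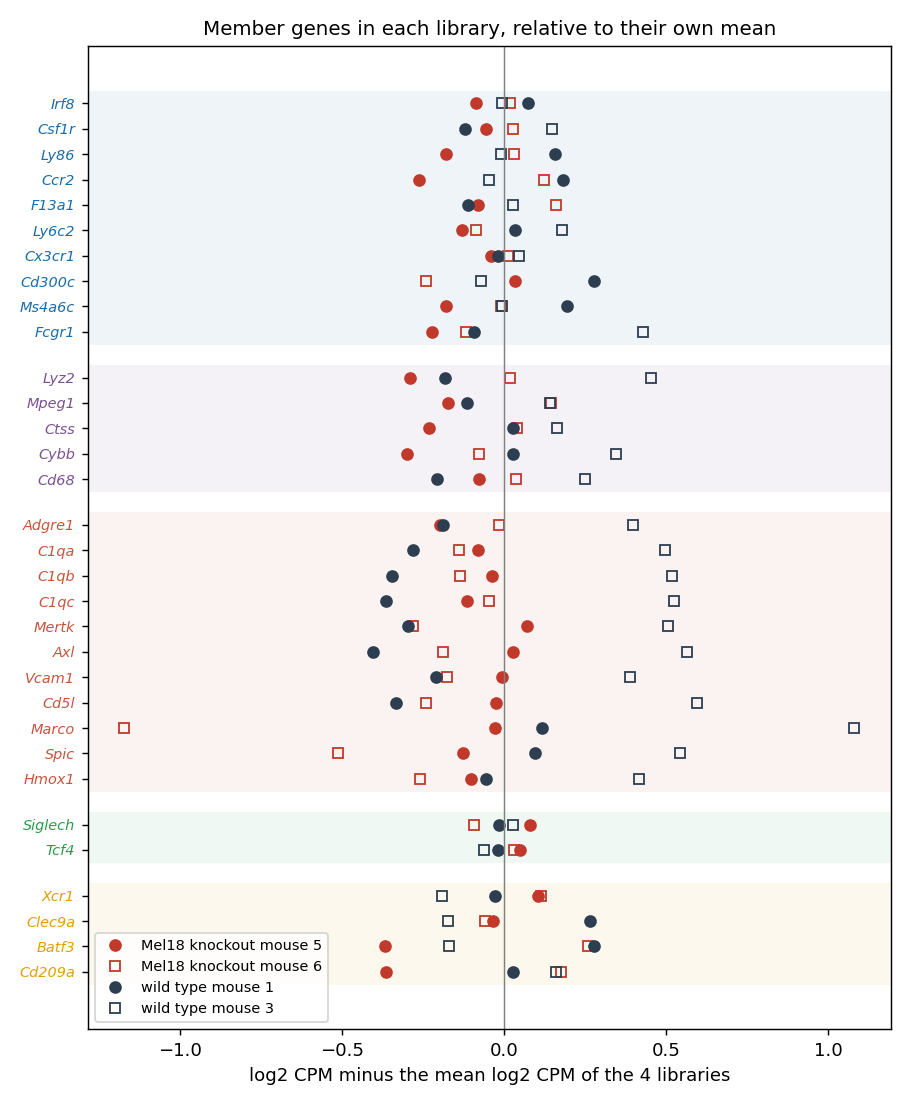
Level of each member gene in each library, as log2 CPM less the mean log2 CPM of that gene over the 4 libraries, with Mel18 knockout mice in red and wild type mice in dark blue. In the resident macrophage block wild type mouse 3 is the rightmost point for all 11 genes, and for 4 of 5 effectors. In the monocyte and conventional dendritic blocks no library is highest throughout, and both plasmacytoid genes are highest in knockout mouse 5.

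Resident macrophage genes were unequal mainly between the wild type mice, and 0 of the 11 passed the test between genotypes. Wild type mouse 3 was the highest of the 4 libraries for 11 of the 11 genes, against 24.2% of all genes, and was at least 1.5 times wild type mouse 1 for 8 of them, against 3.5% of all genes. The median log2 ratio of wild type mouse 3 to wild type mouse 1 was 0.78, beside 0.02 over all genes, and that of knockout mouse 6 to knockout mouse 5 was -0.17. Wild type mouse 3 also exceeded mouse 1 in 5 of 5 effectors, 12 of 13 late neutrophil markers and 7 of 7 erythroid markers. It did so in 5 of the 10 monocyte genes and in 8460 of the 15607 genes. Both knockout libraries lay between the wild type libraries for 7 of the 11 resident macrophage genes, against 19.1% of all genes.

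The complement genes followed this pattern. C1qa, C1qb and C1qc, which encode the chains of the C1q molecule that tags dying cells and immune complexes, lie side by side on chromosome 4 (mm10, minus strand, 136880129 to 136898803 from the start of C1qb to the end of C1qa), with gaps of 2.9 and 3.6 kb between neighbours. C1qa had 56.2 and 53.9 CPM in knockout mice 5 and 6, against 48.8 and 83.7 CPM in wild type mice 1 and 3. C1qb had 57.3 and 53.5 CPM in knockout mice 5 and 6, against 46.2 and 84.1 CPM in wild type mice 1 and 3. C1qc had 50.4 and 52.9 CPM in knockout mice 5 and 6, against 42.4 and 78.6 CPM in wild type mice 1 and 3. In each of the 3 genes wild type mouse 3 was highest and wild type mouse 1 lowest, and the ratio of C1qa to C1qb stayed between 0.981 and 1.06 in the 4 libraries. Their log2 fold changes were -0.27 ± 0.29, -0.23 ± 0.34 and -0.23 ± 0.35 (SE), with quasi-likelihood adjusted p of 0.794, 0.846 and 0.86.

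Receptors for dying cells and the scavenger protein AIM behaved in the same way. Axl, a receptor tyrosine kinase for Gas6-coated dead cells, was at 122 and 105 CPM in knockout mice 5 and 6, against 90.0 and 176 CPM in wild type mice 1 and 3, a 1.96-fold difference between the wild type mice. Its 95% interval, from -1.51 to 1.03 on the log2 scale, did not exclude a 2-fold change in either direction. Mertk, the related receptor, had 14.8 and 11.6 CPM in knockout mice 5 and 6 and 11.5 and 20.0 CPM in wild type mice 1 and 3. Cd5l, which encodes AIM, had 33.3 and 28.7 CPM in knockout mice 5 and 6 and 26.9 and 51.1 CPM in wild type mice 1 and 3. In each of these genes the knockout libraries lay between the wild type libraries. Adgre1, which encodes the F4/80 antigen, had 48.7 and 55.2 CPM in knockout mice 5 and 6, against 49.02 and 73.5 CPM in wild type mice 1 and 3. The adhesion molecule Vcam1, found on macrophages of erythroblastic islands, had 232 and 206 CPM in knockout mice 5 and 6, against 201 and 305 CPM in wild type mice 1 and 3. Wild type mouse 3 was highest for both, and their log2 fold changes were -0.24 and -0.21.

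In 3 of the 11 genes, Spic, Hmox1 and Marco, the knockout values were both under the wild type values, against 20.9% of all genes. Spic, a transcription factor needed for iron-recycling macrophages, had 246 and 182 counts in knockout mice 5 and 6, against 227 and 307 in wild type mice 1 and 3. Scaled, it had 5.32 and 4.08 CPM in knockout mice 5 and 6, against 6.21 and 8.48 CPM in wild type mice 1 and 3. Its log2 fold change was -0.64 ± 0.23 (SE), with an interval from -1.18 to -0.11, and it had the smallest p of the 32 members (0.0249; quasi-likelihood adjusted p = 0.476). Hmox1, the heme oxygenase that breaks down heme, had 87.8 and 78.9 CPM in knockout mice 5 and 6, against 90.7 and 126 CPM in wild type mice 1 and 3. Knockout mouse 5 and wild type mouse 1 were close, and the log2 fold change was -0.38 ± 0.16 (SE; quasi-likelihood adjusted p = 0.564). Marco had 16 and 7 counts in knockout mice 5 and 6, against 14 and 27 in wild type mice 1 and 3, and its log2 fold change of -1.15 ± 0.54 (SE; adjusted p = 0.59) had the widest interval of all members, from -2.43 to 0.13. It was -1.83 without knockout mouse 5, and -0.70 and -0.60 without knockout mouse 6 and without wild type mouse 3.

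The sign of the macrophage fold changes depended on which wild type mouse was kept. Without wild type mouse 1 all 11 were below 0, with a median log2 fold change of -0.60, and 8 members of the whole list were called lower, Adgre1, Axl, C1qa, C1qb, C1qc, Cd5l, Hmox1 and Vcam1, against 1.58% of all genes called lower in that fit. Without wild type mouse 3, 8 of the 11 were above 0, with a median of 0.16 and 0 members called, against 5.41% of all genes. Spic, Hmox1 and Marco remained below 0 without wild type mouse 3, at -0.41, -0.13 and -0.60 (0 passed). In either fit the remaining wild type library is assumed to vary as the knockout pair did.

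**Figure D3:**
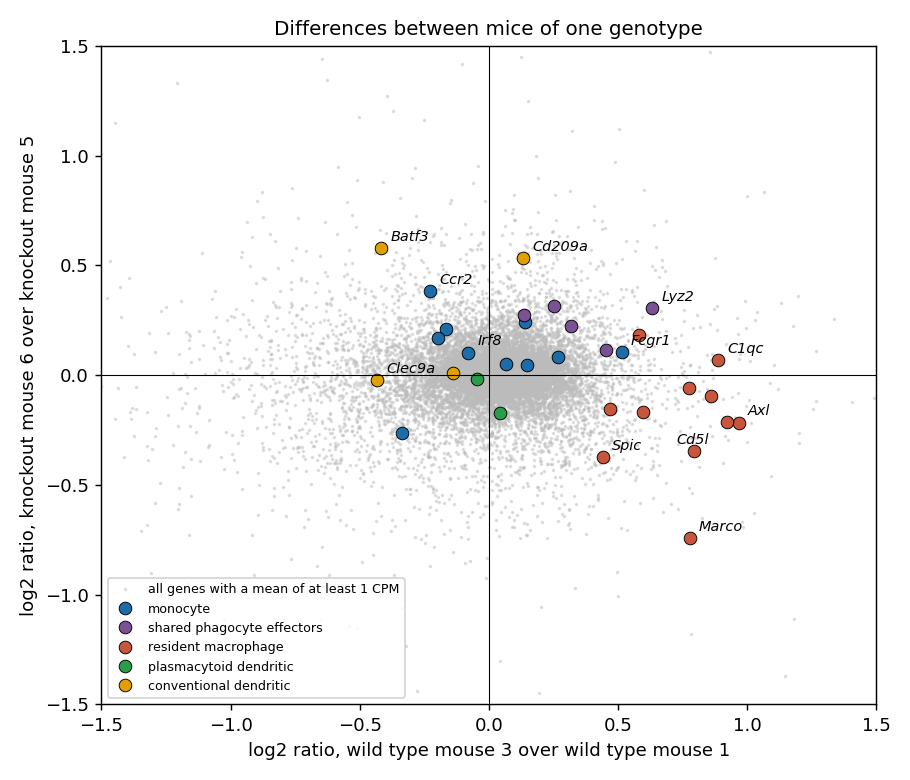
Differences between mice of 1 genotype: log2 ratio of wild type mouse 3 to wild type mouse 1 on the horizontal axis and of knockout mouse 6 to knockout mouse 5 on the vertical axis, for each member (coloured by subset) and for all genes with a mean of at least 1 CPM (grey, those beyond 1.5 on either axis not drawn). The resident macrophage genes lie to the right, between 0.44 and 0.97. The effectors Lyz2 (0.63) and Cd68 (0.46) and the monocyte gene Fcgr1 (0.52) lie in the same range. The dendritic genes and the other monocyte genes lie between -0.43 and 0.27 on that axis.

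Other macrophage genes, from a list of 22 of which 21 were measured, also tended to be higher in wild type mouse 3 than in mouse 1, in 17 of the 21, and the lists were not tested against each other. Of these 0 were called in the test over all genes, and their median log2 fold change was -0.23. At an unadjusted p under 0.05, 3 of the 21 were lower, against 5.56% of all genes. Wild type mouse 3 was at least 1.5 times mouse 1 in 8 of the 21, and the median log2 ratio between these mice was 0.47. The genes with the smallest p were Hpgd (log2 fold change -0.41), Vsig4 (-0.89, at 16 to 34 counts per library), Maf (-0.45) and the metal transporter Slc11a1 (-0.31), with quasi-likelihood adjusted p of 0.508, 0.56, 0.56 and 0.633. In the same libraries the 7 erythroid markers, all measured, had summed levels of 1841 and 1456 CPM in knockout mice 5 and 6 and of 1303 and 1512 CPM in wild type mice 1 and 3. The 9 measured of 10 stroma and endothelium markers summed to 711 and 669 CPM in knockout mice 5 and 6. In wild type mice 1 and 3 they summed to 132 and 235 CPM. Col1a1 and Col1a2, named after values were seen, made up most of the knockout sums. They had 352 and 249 CPM in knockout mouse 5, and 326 and 242 CPM in knockout mouse 6. Wild type mouse 1 had 4.73 and 5.60 CPM of them, and wild type mouse 3 had 80.1 and 58.2 CPM. Of the 9 markers 0 were called by quasi-likelihood, 4 were higher at an unadjusted p under 0.05, and 1 had a log2 fold change below 0. The authors' deposited table calls 3 of them, Bgn, Lum and Col3a1, all higher in knockout. Lum and Col3a1 had at most 3 counts in a wild type library. Lum had 0 counts in wild type mouse 1, and the part of either list in the values of Vcam1, Axl and Hmox1 was not tested.

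Dendritic cell genes did not differ detectably between the groups, and the highest library was not the same for all 6 members. Siglech, a surface lectin of plasmacytoid dendritic cells, had 17.9 and 15.9 CPM in knockout mice 5 and 6, against 16.8 and 17.3 CPM in wild type mice 1 and 3. With a log2 fold change of -0.0099 and an interval from -0.28 to 0.26, it was among the most even of the members. Tcf4, encoding the factor E2-2 that keeps plasmacytoid identity, had 60.5 and 59.8 CPM in knockout mice 5 and 6, against 57.8 and 56.0 CPM in wild type mice 1 and 3. The groups did not overlap, but the log2 fold change was 0.079 ± 0.072 (SE; quasi-likelihood adjusted p = 0.745).

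Markers of conventional dendritic cells were sparse. Clec9a, the receptor with which type 1 cells sense damaged cells, had 301 and 286 counts in knockout mice 5 and 6, against 293 and 214 in wild type mice 1 and 3. Batf3, a factor required for those cells, had 59 and 88 counts in knockout mice 5 and 6, against 73 and 53 in wild type mice 1 and 3. Xcr1 had 36 and 35 counts in knockout mice 5 and 6, against 26 and 23 in wild type mice 1 and 3. Only Xcr1 had a positive log2 fold change among these genes (0.21 ± 0.31, SE), with an interval from -0.51 to 0.94, and Clec9a and Batf3 were at -0.11 and -0.092. Of the exonic bases of Clec9a, 184 are shared with Clec1b on the same strand, so some of its reads are uncertain. Cd209a, a lectin of monocyte-derived and type 2 dendritic cells, had 8.72 and 12.7 CPM in knockout mice 5 and 6, against 11.4 and 12.5 CPM in the wild type mice 1 and 3, and knockout mouse 5 alone was low.

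The other genes listed for these cells held 0 genes called by quasi-likelihood, against 0.135% of all genes. Of 14 other plasmacytoid dendritic genes, 4 were lower at an unadjusted p under 0.05, against 5.56% of all genes, and 0 higher. Their median log2 fold change was -0.22, and in 10 of the 14 the knockout values were both under the wild type values, against 20.9% of all genes. Led by p, they were Il3ra (log2 fold change -0.29), Ly6d (-0.38), Atp1b1 (-0.29) and the ETS factor Spib (-0.50), with quasi-likelihood adjusted p of 0.29, 0.334, 0.383 and 0.442. B lineage markers, 8 of 8 measured, had summed levels of 194 and 158 CPM in knockout mice 5 and 6, against 202 and 230.4 CPM in the wild type mice 1 and 3, and their part was not tested. Of 22 other conventional dendritic genes, 4 were lower and 1 higher at an unadjusted p under 0.05, against 5.56% and 3.33% of all genes. Those of smallest p were the regulator Id2 (log2 fold change -0.49), Irf4 (-0.34), Cd83 (-0.63) and the regulator Zbtb46 (0.42). Their quasi-likelihood adjusted p were 0.214, 0.465, 0.491 and 0.495. The authors' deposited table calls Id2 lower, with an adjusted p of 0.0464.

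Of 25 other monocyte genes 0 were called. At an unadjusted p under 0.05, 5 were lower and 0 higher, against 5.56% and 3.33% of all genes. In 12 of the 25 the knockout values were both under the wild type values, against 20.9% of all genes. The median log2 fold change of the 25 was -0.20. The smallest p belonged to Cd14, the co-receptor for lipopolysaccharide, with 776 and 577 counts in knockout mice 5 and 6, against 844 and 865 in wild type mice 1 and 3 (log2 fold change -0.66 ± 0.14, SE; quasi-likelihood adjusted p = 0.23). The pattern receptor Tlr2 (-0.38), the integrin Itgam (-0.50) and the Fc receptor Fcgr4 (-0.62) came next, with adjusted p of 0.294, 0.389 and 0.411. Itgam, which encodes CD11b, is shared with neutrophils, whose markers had a median log2 fold change of -0.77 in the same libraries, and their part was not tested.

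**Figure D4:**
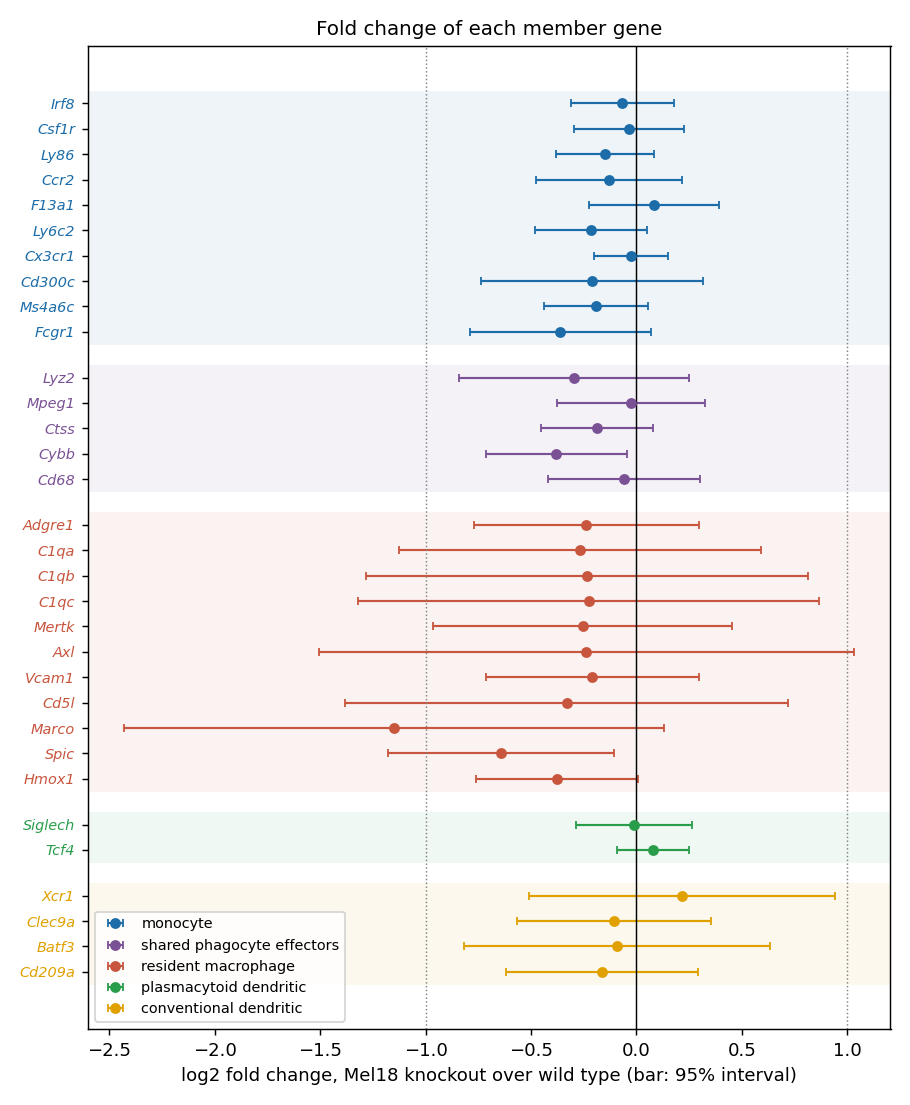
Log2 fold change of each member, Mel18 knockout over wild type, with its 95% interval from the quasi-likelihood fit and dotted lines at 2-fold either way. Most points lie slightly left of 0, and the widest intervals belong to macrophage genes such as Axl, from -1.51 to 1.03, and Marco.

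Summed over each subset, the levels showed the same division. The monocyte genes summed to 2696 and 3003 CPM in knockout mice 5 and 6, against 2950.0 and 3053 CPM in wild type mice 1 and 3. The resident macrophage genes summed to 707 and 649.5 CPM in knockout mice 5 and 6, against 613 and 1007 CPM in wild type mice 1 and 3, so that the wild type mice differed 1.64-fold and enclosed the knockout mice. The effector sums of 3375 and 4133 CPM in knockout mice 5 and 6, against 3705 and 5257 CPM in wild type mice 1 and 3, were made up mostly of Lyz2. The plasmacytoid sums, at 78.4 and 75.7 CPM in knockout mice 5 and 6 and 74.6 and 73.3 CPM in wild type mice 1 and 3, were even, and the conventional dendritic sums were 17.3 and 21.8 CPM in knockout mice 5 and 6 and 22.1 and 20.5 CPM in wild type mice 1 and 3. The plasmacytoid sums held 2 genes, and the 14 other plasmacytoid genes had lower sums in both knockout mice. These were 452 and 421 CPM in knockout mice 5 and 6, against 488.1 and 488.2 CPM in wild type mice 1 and 3. With 2 mice a group an exact two-sided permutation test of these sums could not go below p = 0.333.

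**Figure D5:**
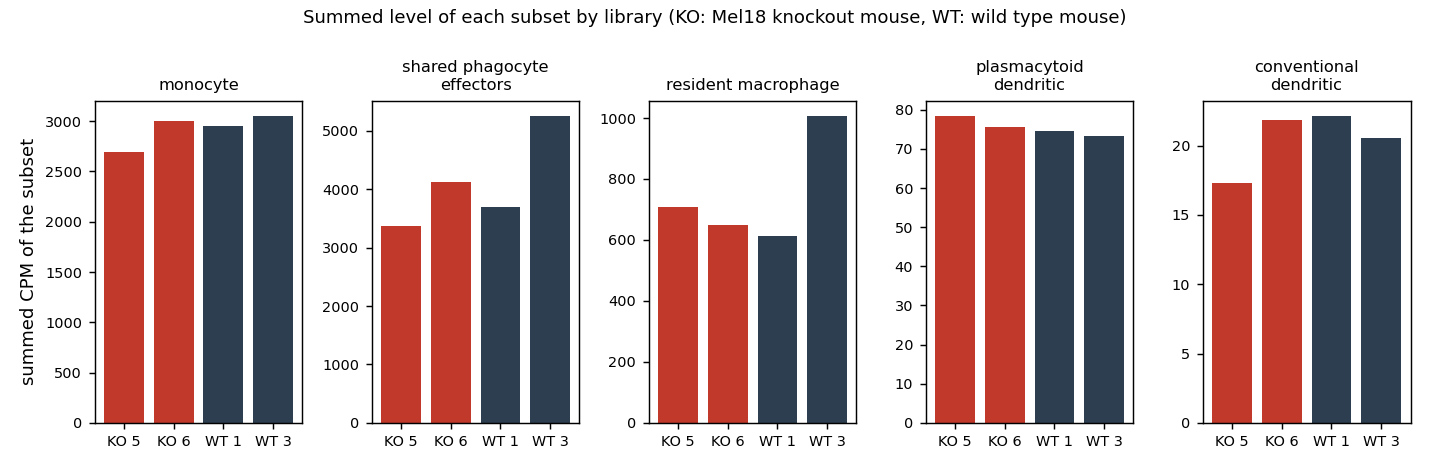
Summed CPM of the member genes of each subset in each library, knockout mice (KO) in red and wild type mice (WT) in dark blue, each panel on its own axis from 0. The resident macrophage sum of 1007 CPM in wild type mouse 3 stands above 613 to 707 CPM in the other 3 libraries. The sums of the 2 plasmacytoid members are even.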

How the data were processed

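Counts, log2 CPM and log2 RPKM per library, with a log2 fold change, p-value and false discovery rate of the authors' own comparison, were deposited in 1 gene table, per the file headers. The submitters' processing notes list STAR 2.5, Trimmomatic 0.40, edgeR 3.28.1, FastQC, MultiQC 0.11.5 and the build mm10. Which tool counted reads, and with what strand setting, is not given in the sources used here. A further 2 columns belong to no labelled sample and were not used.

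Whole-number counts, as deposited by the authors, were scaled by TMM and fitted by robust quasi-likelihood in edgeR 4.0.16 (R 4.3.3), with p-values adjusted by Benjamini-Hochberg over all 15607 genes. Standard errors came from the test statistic, and 95% intervals used the moderated degrees of freedom. CPM used TMM-scaled library sizes, and RPKM divided them by the deposited gene length. The low-count filter removed 0 genes, each row holding at least 24 counts. Member coordinates are from the table, and 30 of 32 matched GENCODE M21 exactly. The procedure was tested on simulated counts. Alternatives were DESeq2 1.42.0, limma 3.58.1 voom and others, given in the closing section. Members and gene lists were chosen with earlier results of these data known. All members could be named, and of each further list up to 4 genes with the smallest p, save genes stated as named or chosen after values were seen. P-values set the group difference against the spread between 2 mice a group, moderated over all genes. At depths of 35599564 to 46240864 counts, Marco, Xcr1 and Batf3 had few counts, which limits their precision.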

Additional observations from a re-analysis of the deposited data

How the results depend on the processing

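The members' log2 fold changes kept their sign and none was called under the 8 alternatives of scaling, test and filter, save that Marco and Xcr1 were not tested under the filter of 1 CPM and Marco got no adjusted p from DESeq2. The count over all genes was 219 by the DESeq2 Wald test, 200 by the likelihood ratio test, 10 with a filter of 1 CPM in 2 libraries, 4 without robust estimation and 0 by limma voom, and 5 to 844 without 1 library at a time, against 21. By limma voom, 2 members had an unadjusted p under 0.05, as by quasi-likelihood. Without 1 library at a time, 0 to 8 members were called, the 8 without wild type mouse 1, and the members' median ran from -0.26 to 0.0003, the last without wild type mouse 3. The log2 ratio of summed levels, knockout over wild type, ran from -0.57 to 0.15 for resident macrophage genes, from -0.49 to 0.019 for the effectors and from -0.30 to 0.033 for conventional dendritic genes. Single log2 fold changes that changed sign ran from -0.16 to 0.096 for Csf1r, from -0.33 to 0.046 for Ccr2, from -0.041 to 0.20 for F13a1, from -0.58 to 0.044 for Lyz2, from -0.19 to 0.12 for Mpeg1, from -0.27 to 0.18 for Cd68, from -0.50 to 0.075 for Adgre1, from -0.61 to 0.16 for C1qa, from -0.60 to 0.25 for C1qb, from -0.60 to 0.28 for C1qc, from -0.60 to 0.19 for Mertk, from -0.64 to 0.32 for Axl, from -0.48 to 0.11 for Vcam1, from -0.72 to 0.20 for Cd5l, from -0.10 to 0.074 for Siglech, from -0.32 to 0.13 for Clec9a, from -0.44 to 0.18 for Batf3 and from -0.46 to 0.077 for Cd209a. The cause was not tested. No paired analysis was possible because the mouse numbers are not shared between the groups. The precision of Marco, Xcr1 and Batf3 is limited by their few counts.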
